A study of Homo sapiens with 4 samples.

Results

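The ADAR deaminase family was followed across the 4 exon arrays of a knockdown experiment. The family was taken as ADAR, ADARB1, ADARB2 and ADAD1, found by their symbols where the platform annotation gave a transcript cluster (the array's gene-level unit) a single symbol. Each gene had 1 such cluster, so the 4 genes held 4 of the 17881 clusters and were 4 of the 14232 genes named. ADAD2, a further relative, was named only in 2 clusters that carry other symbols as well, and its level was not analysed here.

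ADAR enzymes bind double-stranded RNA and deaminate adenosine to inosine, which the translation and splicing machinery reads as guanosine. ADAR, also called ADAR1, is the broadly expressed member; it edits mostly repeat-derived duplexes and keeps self RNA from being sensed as foreign, and one of its isoforms is made from an interferon-inducible promoter. ADARB1 (ADAR2) recodes transcripts of the nervous system such as the glutamate receptor subunit GRIA2, ADARB2 (ADAR3) is a mainly neuronal member with no known editing activity, and ADAD1 is a testis protein that shares the domains of the family.

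The 4 arrays were K562 with an siRNA against ADAR1 (ADARkd), K562 with a scrambled sequence (SCR), HepG2 with the siRNA and HepG2 with the scrambled sequence, 1 array each. K562 derives from a chronic myeloid leukaemia and keeps erythroid traits, and HepG2 derives from a liver tumour. All 4 cultures carried a stably transfected plasmid; several siRNAs had been tried and the most effective was kept, and whether the cells were clones or pools was not given in the sources used here. K562 had been grown in RPMI and HepG2 in DMEM, so line and medium cannot be told apart.

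Values are log2 of the deposited intensity unless called intensity. Genes dimmer than the median gene of a line, by their mean over its 2 arrays (filter levels 5.28 in K562 and 5.31 in HepG2), were set aside as under the filter. This kept 7116 genes per line, with 6204 shared by both lines and 8028 found in at least 1. The arrays were close in level, with median intensities of 37.0 and 36.7 for ADARkd and SCR in K562 and of 36.1 and 36.7 in HepG2. Defining markers went against the HepG2 label: of 21 hepatocyte markers measured, 3 were kept in K562 and 2, CPS1 and FOXA1, in HepG2, where ALB (albumin) stood at 2.97 in ADARkd and 3.04 in SCR. These arrays are therefore called labelled HepG2. Of 11 erythroid markers, 10 were kept in K562 and 1, the transferrin receptor TFRC, on the arrays labelled HepG2. Of 12 fibroblast and stromal markers, 2 were kept in K562 and 8 on the arrays labelled HepG2. With 1 array per line and arm, no difference between arms within a line has a replicate check, and precision is limited by how few arrays there are.

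The first question was how far the targeted transcript was lowered in each line. ADAR had an intensity of 109.6 in ADARkd and 254 in SCR in K562. On the arrays labelled HepG2 it had 154 in ADARkd and 497 in SCR. Both knockdown arrays thus lay under both scrambled arrays. On the log2 scale the levels were 6.78 and 7.99 in K562 and 7.27 and 8.96 on the arrays labelled HepG2, all above the filter level. The differences, ADARkd minus SCR, were -1.21 in K562 and -1.69 on the arrays labelled HepG2. The knockdown left 43.2% of the scrambled intensity in K562 and 31.0% on the arrays labelled HepG2. In bulk RNA, fewer cells with the transcript and less of it per cell cannot be told apart.

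The fold decrease was larger on the arrays labelled HepG2, where the scrambled level was also higher. The 2 differences were 0.48 apart on the log2 scale, and this gap was not tested because no residual degree of freedom is left for it. The intensity that remained in ADARkd was nevertheless lower in K562, by 0.49 on the log2 scale. The level left on the ADARkd array labelled HepG2 was 0.72 lower on the log2 scale than the level of untargeted ADAR in K562 (difference -0.72). The order of the 4 arrays for ADAR was therefore SCR labelled HepG2, SCR in K562, ADARkd labelled HepG2 and ADARkd in K562, with no replicate spread to set any neighbours in it apart.

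**Figure D1:**
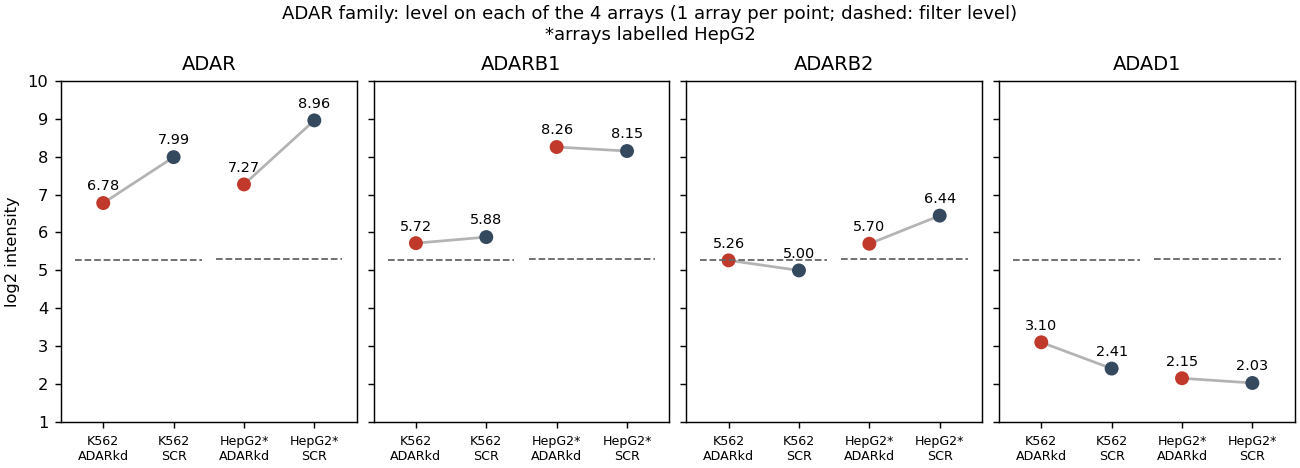
Log2 intensity (y axis) of each family member on each of the 4 arrays (x axis), 1 array per point, red for ADARkd and dark blue for SCR, with dashed lines at each line's filter level of 5.28 or 5.31. ADAR is lower in ADARkd in both lines, and ADARB1 differs mainly between the lines. ADARB2 lies just under the filter level in K562 and above it on the arrays labelled HepG2. ADAD1 lies far under the filter level on every array.

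The difference of ADAR was set against those of all kept genes. It ranked as number 7 from the lowest of 7116 genes in K562 and as number 25 of 7116 on the arrays labelled HepG2. In K562 the central 95% of genes differed by between -0.45 and 0.30 on the log2 scale, and on the arrays labelled HepG2 by between -0.85 and 0.99. ADAR lay outside both ranges. Measured from the median gene, which differed by -0.07 in K562 and 0.11 on the arrays labelled HepG2, the ADAR difference was -1.14 and -1.80.

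A 2-fold bound was used to count members. Of the 2 members kept in K562, 1 was at least 2-fold lower in ADARkd, against 0.126% of all kept genes there (9 of 7116). Of the 3 members kept on the arrays labelled HepG2, 1 was at least 2-fold lower in ADARkd, against 1.57% of all kept genes (112 of 7116). ADAR was that member each time. Of the 6204 genes kept in both lines, 1 was at least 2-fold lower in ADARkd in both (0.0161%), and that gene was ADAR.

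The genes that came nearest to this were HGSNAT, BTBD2, NDRG1 and ITGB5, ranked by the smaller of their 2 decreases. HGSNAT, a lysosomal acetyltransferase, differed by -0.83 in K562 and -1.66 on the arrays labelled HepG2. BTBD2 differed by -0.60 and -0.80 in the same order of lines. NDRG1, a stress-responsive gene, had differences of -0.57 and -1.04, and ITGB5, an integrin subunit, of -0.56 and -0.61. HGSNAT came close to ADAR on the arrays labelled HepG2 and none of the 4 did in K562, where HGSNAT and BTBD2 lay under the filter level in ADARkd.

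**Figure D2:**
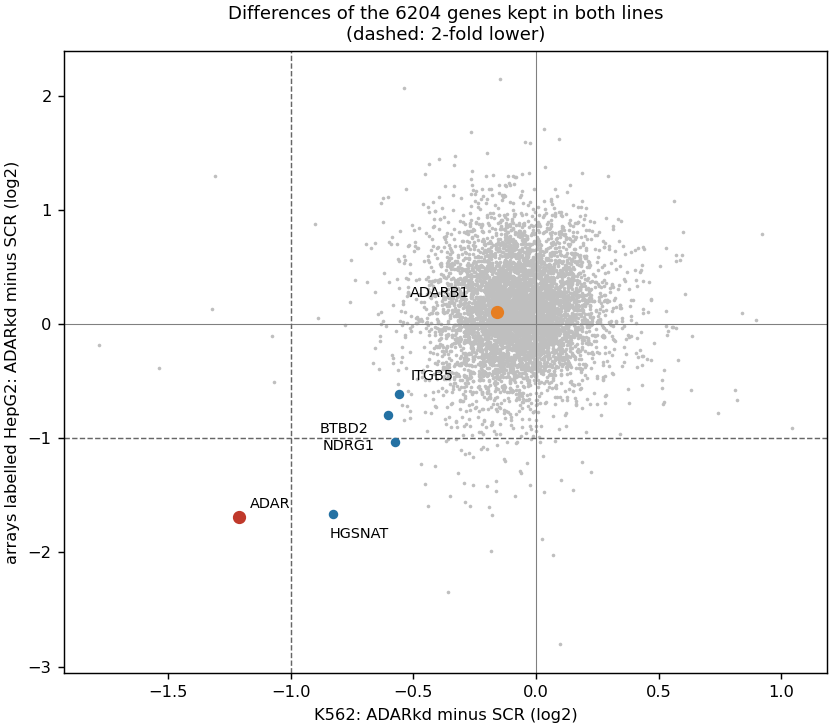
ADARkd minus SCR in K562 (x axis, log2) against the same difference on the arrays labelled HepG2 (y axis, log2) for the 6204 genes kept in both lines, 1 grey point per gene, with dashed lines at 2-fold lower. ADAR (red) is the 1 point in the corner under both lines, HGSNAT, BTBD2, NDRG1 and ITGB5 (blue) follow it, and ADARB1 (orange) lies in the main cloud.

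A joint fit asked whether the shared lowering stood out from the disagreement between lines. In limma with line and arm as terms, ADAR differed by -1.45 ± 0.22 on the log2 scale between ADARkd and SCR (SE, 2 arrays per arm; adjusted p = 0.87). It had the smallest unadjusted p of the 6204 genes (0.00014) and the lowest estimate, and it was lower in ADARkd in both of the 2 lines. After limma's test and Benjamini-Hochberg adjustment, 0 of the 6204 passed (0%), while 179 had an unadjusted p under 0.05. The fit has 1 residual degree of freedom, the gap between the lines' differences, so its errors rest on that gap and on the spread assumed across genes.

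ADARB1, the other member with known editing activity, showed no such lowering. Its intensity in K562 was 52.6 in ADARkd and 58.8 in SCR. On the arrays labelled HepG2 it was 306 in ADARkd and 284 in SCR. The arms were thus close within each line, while both arrays labelled HepG2 lay far above both K562 arrays. The log2 differences between arms were -0.16 in K562, which ranked 2141 from the lowest of 7116, and 0.11 on the arrays labelled HepG2, which ranked 3552 of 7116. The value labelled HepG2 was -0.04 after quantile normalization and -0.07 after cyclic loess, so its sign depends on the scaling. The limma estimate over both lines was -0.03 ± 0.21 (SE, 2 arrays per arm; adjusted p = 0.9996).

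Between the lines ADARB1 had the largest difference of the members. K562 minus the arrays labelled HepG2 was -2.54 on the log2 scale in ADARkd and -2.27 in SCR, or 5.81-fold and 4.83-fold lower in K562. In limma the K562 minus HepG2 difference was -2.40 ± 0.21 (SE, 2 arrays per line; adjusted p = 0.000122), with both K562 arrays lower. Of the 3 members tested, ADARB1 alone passed at an adjusted p under 0.05 with at least a 2-fold difference, and 14.7% of the 8028 genes tested passed as lower in K562. The level of ADARB1 in K562, 5.72 in ADARkd and 5.88 in SCR, was above the filter level by 0.52 on average. With the filter at the 75th percentile ADARB1 was not kept in K562.

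ADAR itself was lower in K562 than on the arrays labelled HepG2 in both arms, by 0.49 in ADARkd and 0.97 in SCR on the log2 scale. Its limma estimate was -0.73 ± 0.22 (SE, 2 arrays per line; adjusted p = 0.034), under the 2-fold bound. That estimate averages targeted and untargeted arrays. In SCR alone the difference corresponds to a level 1.96-fold lower in K562, and in ADARkd to 1.41-fold.

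The mean level of ADARB2 was -0.15 from the filter level in K562 and 0.76 above it on the arrays labelled HepG2. Its intensity in K562 was 38.4 in ADARkd and 32.0 in SCR. On the arrays labelled HepG2 it was 52.1 in ADARkd and 87.1 in SCR. The SCR array labelled HepG2 was thus the highest of the 4, and the K562 pair ran the other way. The log2 differences were 0.27 in K562, where the mean level of 5.13 was under the filter, and -0.74 on the arrays labelled HepG2. The difference on the arrays labelled HepG2 ranked 239 from the lowest of 7116 genes, and 10.2% of the kept genes were at least as far from 0 there. It was under the 2-fold bound, at 59.8% of the scrambled intensity.

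The ADARB2 values were also lower in K562 than on the arrays labelled HepG2, with both K562 arrays under the filter level. K562 was lower by 0.44 in ADARkd and by 1.45 in SCR on the log2 scale, and the limma estimate was -0.94 ± 0.27 (SE, 2 arrays per line; adjusted p = 0.030). The estimate was under the 2-fold bound as deposited and -1.06 after cyclic loess (adjusted p = 0.023). ADARB2 was not part of the limma fit of the arms, since it was not kept in K562. It entered the fit between the lines only through the arrays labelled HepG2, where it was higher. That test is therefore no independent support for a difference between the lines.

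ADAD1 was under the filter on every array. Its intensity in K562 was 8.58 in ADARkd and 5.31 in SCR. On the arrays labelled HepG2 it was 4.45 in ADARkd and 4.08 in SCR. Its log2 levels were 2.03 to 3.10, and its mean was -2.52 from the filter level in K562 and -3.22 on the arrays labelled HepG2. Background can set such values and was not analysed here, so its differences of 0.69 and 0.12 carry no order. With log2(value + 16) they were 0.21 and 0.03.

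Genes with the pattern most like each member were found by Euclidean distance over the 4 arrays, on log2 values from which each gene's own mean had been subtracted. For ADAR, 0 of 8027 other genes lay within a distance of 0.5. The nearest were SH3PXD2B (0.57), MMD (0.57), ACSF2 (0.62), YPEL5 (0.69) and C1orf21 (0.75), and the median gene lay at 1.82. These 5 genes differed between the arms by -0.47 to -0.22 in K562 and by -2.03 to -1.23 on the arrays labelled HepG2. C1orf21, at -0.22 in K562, was under the filter there. ADAR differed from the 5 genes mainly by its K562 arms.

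For ADARB1, 128 genes lay within the same distance and for ADARB2, 219. The nearest to ADARB1 were IFI30, a lysosomal thiol reductase (0.09), the death receptor FAS (0.11), the dynein light chain DYNLT3 (0.12), PXDC1 (0.13) and the peptide hormone gene ADM (0.14). FAS, PXDC1 and ADM were under the filter in K562. Nearest to ADARB2 were the neuronal membrane protein SLITRK5 (0.11), the cadherin CELSR3 (0.14), the chromatin reader ING4 (0.19), the deubiquitinase JOSD1 (0.20) and the translation factor CTIF (0.22). SLITRK5, CELSR3 and CTIF were under the filter in K562, as ADARB2 was. Likeness over 4 arrays is a description; it rests on 4 values, in pairs that share a line.

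**Figure D3:**
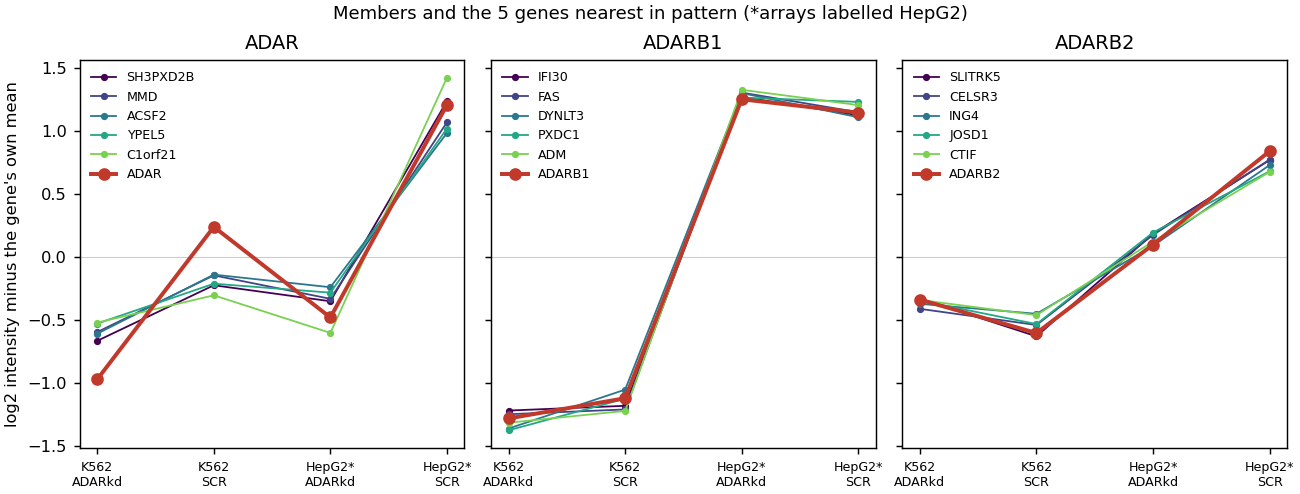
Log2 intensity minus each gene's own mean (y axis) over the 4 arrays (x axis) for ADAR, ADARB1 and ADARB2 (red) and the 5 genes nearest to each in pattern. The lines of ADARB1 and ADARB2 overlap those of their neighbours at distances of 0.09 to 0.22, while ADAR runs apart from its own at 0.57 to 0.75, mainly in K562.

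Chromosomal neighbours were compared next, as the 5 measured genes on each side in the RefSeq order of a later assembly, GRCh38.p14. None of the neighbours of ADAR kept in a line was 2-fold apart. They differed by between -0.20 and 0.27 in K562 (5 kept) and by between -0.88 and 0.37 on the arrays labelled HepG2 (6 kept). UBE2Q1, a ubiquitin-conjugating enzyme and the nearest kept gene on its side, differed by -0.06 and 0.28, and PMVK of the mevalonate pathway, the nearest kept on the other, by 0.27 and 0.37. The lowest was PBXIP1, at -0.88 on the arrays labelled HepG2. The ADAR difference was thus not shared by its measured neighbours.

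On the arrays labelled HepG2, ADARB2 had a neighbour with a difference near its own, while most kept neighbours were higher in ADARkd. The RNA-binding protein LARP4B differed by -0.77 and the chromatin reader ZMYND11 by -0.50, while the transcription factor KLF6 differed by 1.09. IDI1, PFKP and PITRM1 differed by 0.20, 0.08 and 0.50, and the median of the 6 kept was 0.14 on these arrays. ADARB2 itself stood at -0.74 there. In K562 the 6 kept neighbours lay between -0.22 and 0.14. ADARB2 had 9 measured neighbours because it lies near a chromosome end. Those of ADARB1 kept on the arrays labelled HepG2 lay between -0.36 and 0.46, and those of ADAD1 between -0.01 and 0.36.

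**Figure D4:**
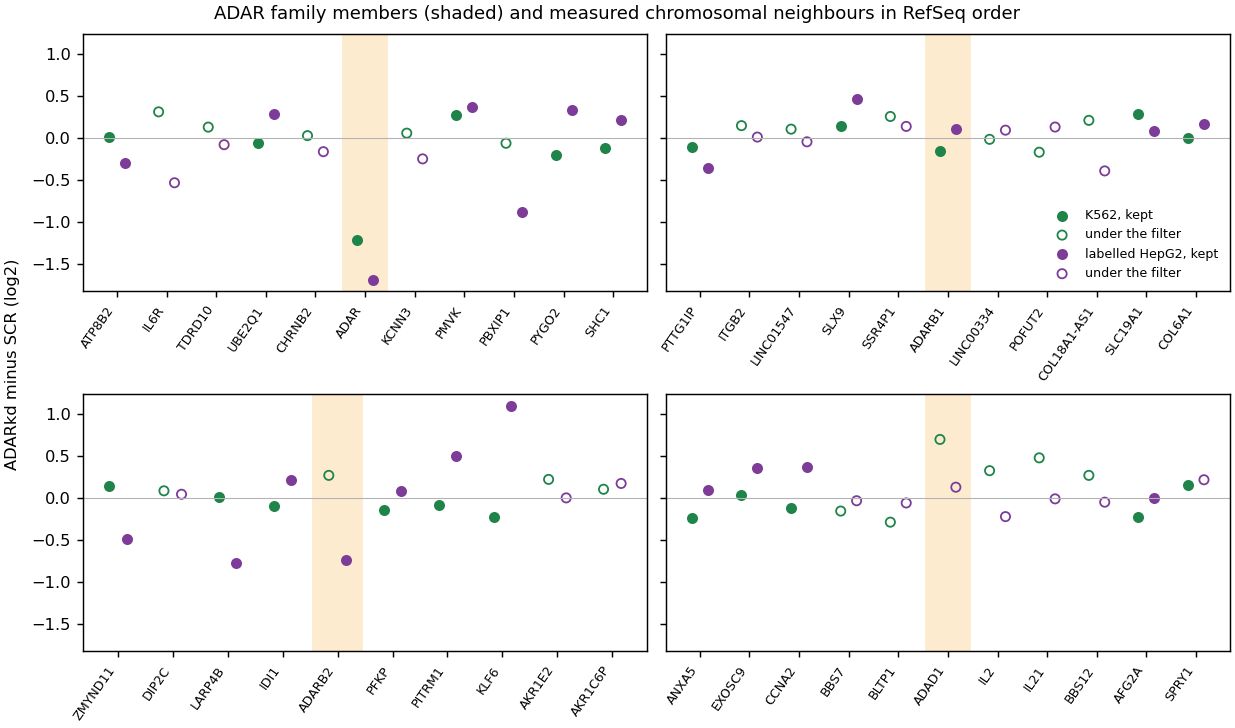
ADARkd minus SCR (y axis, log2) for each member (shaded) and its measured neighbours in chromosomal order (x axis), green for K562 and purple for the arrays labelled HepG2, with open circles for genes under the filter. ADAR lies at -1.21 and -1.69 among neighbours no lower than -0.88, while ADARB2 lies at -0.74 beside LARP4B at -0.77.

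The other deaminases and the proteins that share RNA-binding domains, transport routes or inosine with the family were summarised by lists. Counts used a 1.5-fold bound, which 0.267% of kept genes passed as higher and 0.759% as lower in ADARkd in K562, against 12.4% and 5.73% on the arrays labelled HepG2. In K562, 0 kept members of the 5 lists passed it in either direction. The list medians there, -0.07 to -0.14, lay near the -0.07 of all kept genes. After quantile normalization that median was -0.001 and the list medians ran from -0.09 to 0.01.

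Of the other adenosine and AMP deaminases, 7 of 11 listed symbols, an older name included, were measured and 4 were kept on the arrays labelled HepG2. None of these passed the 1.5-fold bound, and their median of 0.10 was close to the 0.11 of all genes. ADAT1 and ADAT2, which make inosine in transfer RNA, differed by -0.18 and -0.21 in K562 and by 0.21 and 0.21 on the arrays labelled HepG2. ADA, the adenosine deaminase of purine salvage, differed by 0.04 and 0.00. AMPD2, an AMP deaminase, had differences of -0.07 in K562 and -0.21 on the arrays labelled HepG2. ADAT2 was higher in K562 than on the arrays labelled HepG2 by 1.27 ± 0.22 (SE, 2 arrays per line; limma adjusted p = 0.0032). AMPD3, named after its value was seen, was also higher in K562, by 1.08 ± 0.21 (SE, 2 arrays per line; limma adjusted p = 0.0058). It was under the filter on the arrays labelled HepG2, at 4.6 in ADARkd and 4.55 in SCR. AMPD3 thus entered the test only through K562, where it was higher, so its call is no independent support. With AMPD3 included, 2 of 5 tested passed as higher in K562, against 10.3% of all genes.

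Cytidine deaminases convert cytidine to uridine or deoxycytidine to deoxyuridine; 8 of 14 were measured and 3 were kept on the arrays labelled HepG2. APOBEC3C, a restriction factor of retroviruses, was the 1 that passed the 1.5-fold bound. It stood at 7.976 in ADARkd and 8.002 in SCR in K562, and at 7.999 in ADARkd and 6.412 in SCR on the arrays labelled HepG2. The SCR array labelled HepG2 was thus the low one of the 4. The differences were -0.03 and 1.59, and the gap between them was not tested. Probes of close APOBEC3 paralogs can bind related transcripts, which makes this value uncertain. CDA, the cytidine deaminase of pyrimidine salvage, differed by 0.51 on the arrays labelled HepG2. Its K562 minus HepG2 difference was -4.46 ± 0.21 (SE, 2 arrays per line; limma adjusted p = 1.08e-05), where it lay under the filter, so the size is uncertain. DCTD and CDADC1 were higher in K562 by 1.30 and 1.26 (limma adjusted p = 0.0025 and 0.0028). CDADC1 was under the filter on the arrays labelled HepG2, at 4.47 in ADARkd and 4.59 in SCR. CDA and CDADC1 each entered the test only through the line where they were higher, so their calls are no independent support. Of the 4 tested, 2 passed as higher in K562 and 1 as lower, against 10.3% and 14.7% of all genes.

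Among other proteins that bind double-stranded RNA or Z-RNA, 21 of 25 listed symbols, older names included, were measured and 17 were kept in both lines. On the arrays labelled HepG2 4 were at least 1.5-fold higher and 0 lower in ADARkd, against 12.4% and 5.73% of all kept genes. The 4 were the helicases DHX29 (1.10) and DHX9 (0.72), STRBP (0.76), and CDKN2AIP (0.62). In K562 the same 4 differed by -0.31, -0.21, -0.38 and -0.11. The list median was 0.23 on the arrays labelled HepG2, or 0.16 after quantile normalization and 0.16 after cyclic loess. The medians of all kept genes were 0.11, 0.01 and -0.0001 in the same order. With the filter at the 75th percentile the list median was 0.14 over 8 members, against 0.15 for all kept genes. EIF2AK2, the kinase PKR that is activated by double-stranded RNA, differed by -0.29 in K562 and 0.17 on the arrays labelled HepG2. The microprocessor nuclease DROSHA differed by -0.27 and 0.42. ZBP1, the other human protein with a Z-RNA-binding domain, was under the filter in both lines, as were TLR3, IFIH1 and RIGI, all sensors of double-stranded RNA; the last 4 were named after their values were seen.

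Proteins that transport or control ADAR enzymes had 7 of 13 listed members measured, all kept in both lines. TNPO1, the import receptor of ADAR1, differed by -0.10 in K562 and 0.60 on the arrays labelled HepG2, and was the 1 member past the 1.5-fold bound. The export receptors XPO5 and XPO1 differed by -0.28 and -0.21 in K562 and by -0.04 and 0.31 on the arrays labelled HepG2. KPNA3, an import adaptor, differed by -0.09 and 0.38, and SRSF9, an SR protein reported to affect editing, by -0.04 and 0.44. KPNA1 and RPS14 differed by -0.23 and -0.14 in K562 and by 0.13 and 0.22 on the arrays labelled HepG2. The list median was 0.31 on the arrays labelled HepG2, or 0.17 after quantile normalization, against 0.11 and 0.01 for all kept genes.

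Proteins that bind inosine-containing RNA or act on it had 5 of 8 measured and 4 kept in both lines. PSPC1, a paraspeckle protein, was the 1 past the bound, at -0.07 in K562 and -0.76 on the arrays labelled HepG2. Its paraspeckle partners NONO and SFPQ differed by -0.30 and -0.05 in K562 and by -0.26 and 0.45 on the arrays labelled HepG2. TSN, which forms a nuclease with its partner TSNAX, had differences of -0.09 and 0.39. The median of 0.06 over the 4 on the arrays labelled HepG2 was -0.06 over 4 after quantile normalization. After cyclic loess 5 members were kept there, and their median was 0.13.

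Fibroblast and stromal markers differed between the arms in both directions on the arrays labelled HepG2, and their part in the differences above was not tested. Of the 8 kept there, 4 were at least 1.5-fold lower in ADARkd (COL3A1, FN1, FAP and COL1A1, at -2.42 to -1.12) and 2 higher. The 2 were LUM, at 10.02 in ADARkd and 9.24 in SCR, and DCN, at 8.98 and 8.34. In ADARkd, COL3A1 (4.93), FAP (4.53) and COL1A1 (5.11) lay under the filter level of 5.31. The summed intensity of the 12 stromal markers measured was 2276 in ADARkd and 2265 in SCR, against 503 and 547 in K562. LUM, DCN and VIM, the brightest of them on the arrays labelled HepG2, made up most of both sums there. VIM stood at 8.85 in ADARkd and 9.41 in SCR, so the near-equal sums cover changes in both directions. COL1A2, THY1, PDGFRB and POSTN were under the filter on the arrays labelled HepG2. The summed intensity of hepatocyte markers there was 1831 in ADARkd and 2215 in SCR. CPS1, at 10.56 in ADARkd and 10.89 in SCR on the log2 scale, made up most of this sum. FOXA1, the other hepatocyte marker kept there, stood at 6.23 and 6.13.

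**Figure D5:**
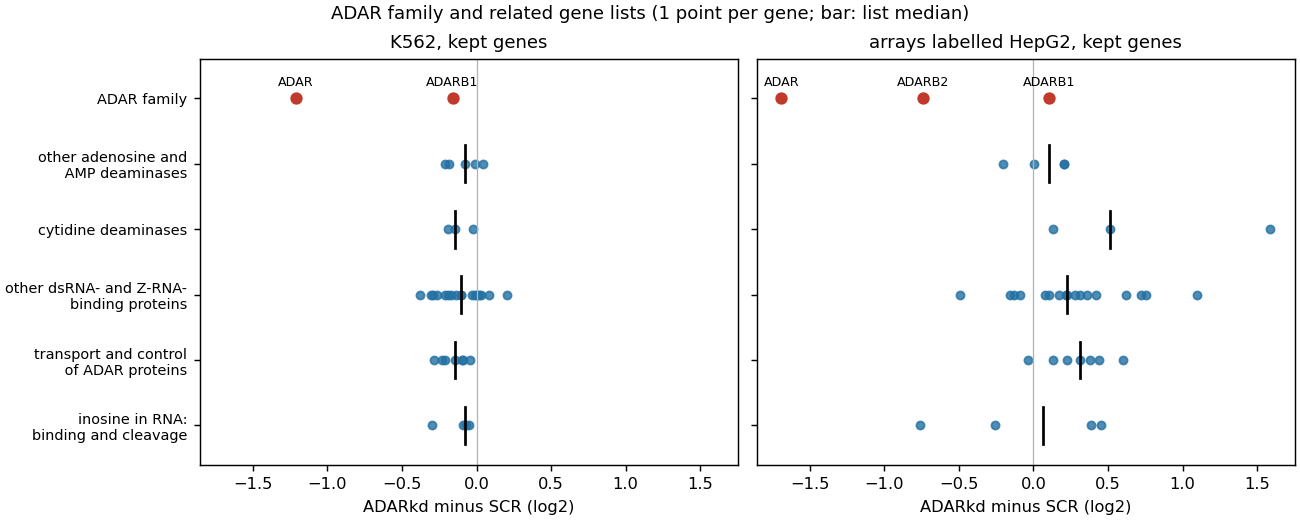
ADARkd minus SCR (x axis, log2) in K562 (left) and on the arrays labelled HepG2 (right) for the kept members of the ADAR family (red) and of the 5 related lists (blue), 1 point per gene, with a black bar at each list's median. ADAR lies lowest in both panels at -1.21 and -1.69, and the largest difference in the blue lists is APOBEC3C at 1.59.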

How the data were processed

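Total RNA of the 4 cultures, extracted with TRIzol, was biotin-labelled for Affymetrix exon arrays, per the labels' protocols. The table deposited by the authors gives linear, positive values of intensity for transcript clusters. The submitters' processing notes name RMA and hg18 without versions; what was done after that is not stated. Log2 was taken without an offset. Of 17881 clusters, 14432 had 1 symbol, 2408 several and 1041 none; 14404 single symbols were matched to RefSeq by Entrez number. For the 197 genes with more than 1 cluster, the brightest on average was used.

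limma 3.58.1 in R 4.3.3 was run over all kept genes (lmFit and eBayes with a trend on intensity). Two-sided p-values were adjusted by Benjamini-Hochberg at 0.05. The code was also run on simulated data with the same spread for all genes and arrays. In the real data the arm differences had an SD of 0.19 in K562 and 0.47 on the arrays labelled HepG2. The simulation therefore does not show how the fit performs on these arrays. Genes kept in both lines entered the fit of the arms, and genes kept in either entered K562 minus HepG2, with a 2-fold bound added. Differences within a line have no p-value. The members and the 5 lists were chosen with earlier results of these data known. Named were the members, the 5 genes nearest in pattern to each kept member, the 5 genes lowest in both lines (ADAR included), 5 neighbours a side, and up to 4 genes per list and line with the largest difference. The alternatives were quantile normalization, cyclic loess, log2(value + 16), the mean of all clusters, no filter, a filter at the 75th percentile and no trend. Figures were drawn with matplotlib 3.10.9.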

Additional observations from a re-analysis of the deposited data

Results flagged for a closer look

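Of the members, 2 had arms that ran opposite ways in the lines. ADARB1 differed by -0.16 in K562 and by 0.11 on the arrays labelled HepG2 (ADARkd minus SCR, log2), and the value labelled HepG2 turned negative under quantile normalization and cyclic loess. ADARB2 differed by 0.27 in K562, under the filter, and by -0.74 on the arrays labelled HepG2. Each value rests on 1 array per arm, and neither difference between the lines was tested.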

How the results depend on the processing

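The limma fit with line and arm as terms compares the arms within lines; the labels give no replicate numbers to pair by beyond that. Over the 7 alternatives ADAR differed by between -1.21 and -1.10 in K562 and between -1.86 and -1.59 on the arrays labelled HepG2, and under each it was the 1 gene at least 2-fold lower in both lines. Only quantile normalization, cyclic loess and log2(value + 16) could move these differences. ADAR has 1 cluster, and the filters and the trend leave its values unchanged. The limma estimate of ADAR ran from -1.49 to -1.35 (adjusted p from 0.13 to 0.99997), and ADAR had the smallest unadjusted p under all 7 alternatives. ADARB1 on the arrays labelled HepG2 turned to -0.041 (quantile) and -0.068 (loess). In SCR, ADAR was lower in K562 by over 2-fold after quantile normalization (-1.03) and loess (-1.13). Genes at least 2-fold apart were 287 on the arrays labelled HepG2, 186 with log2(value + 16) and 116 with the stricter filter. In K562 they were 11, and 7 with log2(value + 16), 30 with no filter and 1 with the stricter filter. K562 minus HepG2 called 2014 genes, and 1159 with the stricter filter, which tests fewer genes. ADARB2 passed in that comparison after loess alone. The cause of the other changes was not tested. Signal over background was not analysed here, which limits ADAD1 on every array and ADARB2 in K562.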
